A study of Caenorhabditis elegans with 50 samples.

Results

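The genes described here are 8 chaperone genes and chaperone regulators of the nematode Caenorhabditis elegans: hsp-1, hsp-70, hsp-110, hsp-6, hsp-60, daf-21, sti-1 and hsf-1. They were chosen by name, as entries of the deposited count table whose gene name is exactly one of these. Of the 8, 6 had an entry of their own (hsp-1, hsp-70, hsp-6, hsp-60, sti-1 and hsf-1), among 33458 entries in all. The names daf-21 and hsp-110 occur only in entries shared with other gene names, so they fall outside that rule. Their shared entries are given as such where they bear on the other genes, and are not counted among the 6.

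Chaperones of the HSP70 family bind exposed stretches of unfolded proteins and release them in cycles driven by ATP, helped by J-domain proteins and by exchange factors such as HSP110. HSP90, encoded by daf-21, takes over many partly folded clients from HSP70 through the linker protein that sti-1 encodes. In mitochondria an HSP70 encoded by hsp-6 and the chaperonin ring encoded by hsp-60 fold imported proteins, and both genes are widely used as reporters of the mitochondrial unfolded protein response. The transcription factor encoded by hsf-1 drives heat shock genes and is known to be needed, like the FoxO factor DAF-16, for the long life of animals with reduced insulin/IGF-1 signalling.

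Polyadenylated RNA of whole animals on day 1 of adulthood was sequenced as 100-cycle paired ends in 50 libraries, 5 biological samples, numbered 0 to 4, for each of 10 strains. The design serves to find genes whose mRNA depends on the FoxO factor gene daf-16 in strains that live long. The first 7 strains were wild type (WT), the insulin/IGF-1 receptor mutants daf-2(e1370) and daf-2(e1368), and each of these with daf-16(mg54) or daf-16(mu86). They were kept at 15 °C for 72 hours and then at 20 °C, and daf-2(e1370) was started 6 hours ahead at egg lay, a lead not named for its doubles. These 35 libraries are called the daf-2 family. The other 3 strains were glp-1(e2141), alone or combined with either daf-16 allele, kept at 25 °C, which removes their germline, and these 15 libraries are called the glp-1 family. With no wild type at 25 °C analysed here, temperature, the missing germline and the glp-1 genotype cannot be told apart in any comparison with WT. The mg54 allele of daf-16 is a nonsense mutation and mu86 a deletion.

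Libraries of the daf-2 family held 19893281 to 34247043 estimated fragments, except replicate 2 of daf-2(e1370) with 2367909, and those of the glp-1 family held 13822805 to 23811780. Total daf-16 mRNA lay at 94.5 to 114 counts per 1000000 fragments (CPM) in the mg54 doubles of both daf-2 alleles and at 179 to 269.6 CPM in both daf-2 single mutants, while the mu86 doubles overlapped the latter (148 to 233 CPM), so the gene total does not check that allele. In the glp-1 family it checks neither allele: the mg54 double (119 to 229.7 CPM) overlapped glp-1(e2141) (141.6 to 253 CPM), and the mu86 double lay above both, at 377 to 505 CPM. Summed germline and oocyte markers reached at most 139 CPM in the glp-1 family and at least 8537 CPM elsewhere, on a scale common to all libraries. Replicates 0 and 1 of both daf-16 doubles of daf-2(e1370) stood apart from replicates 2 to 4, with low sperm and body wall muscle marker sums, and lead an axis that holds 66.6% of the deviations from strain means. Replicate 0 of glp-1(e2141), replicate 2 of its mg54 double and replicate 3 of its mu86 double lead the axis of the glp-1 family (40.3%). Results that rest on these libraries are given with and without them.

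In the deposited coordinates (ce10), hsp-1 lies at chromosome IV, 17278926 to 17281148, hsp-6 at V, 4824590 to 4826741, sti-1 at V, 773591 to 774716, and hsf-1 at I, 11953483 to 11964845. The deposited locus of hsp-60 (III, 1558781 to 2217085) is a bundle of 106 neighbouring entries. hsp-70 is listed at I, 9317621 to 9327206, together with uggt-2, a gene on the opposite strand. In the WBcel235 annotation the exons of hsp-70 share 0 bases with those of uggt-2, inside whose span the gene lies. No source used here states the strand setting of the counting, so reads from overlapping transcripts of opposite strands cannot be told apart. By the same annotation the coding sequences run from 0.96 kb (sti-1, 4 exons) to 2.013 kb (hsf-1, 9 exons). Among the others hsp-1 has 4 exons, hsp-6 4, hsp-60 6 and hsp-70 3.

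The 6 genes differed widely in level. Per kilobase of coding sequence, the median library of the daf-2 family held 1900 CPM for hsp-1, the constitutive cytosolic HSP70, followed by 434 for hsp-60, 394 for hsp-6 and 249 for sti-1. The transcription factor gene hsf-1 stood at 68.5 CPM per kilobase and the inducible cytosolic HSP70 gene hsp-70 at 2.29. The order was the same in the glp-1 family down to hsf-1 apart from a near tie of hsp-60 and hsp-6 (420, 109, 108, 50.1 and 14.3 for hsp-1, hsp-60, hsp-6, sti-1 and hsf-1), and hsp-70 stood at 5.84. CPM values in the text are on the scale of the strains fitted together (TMM factors within the daf-2 or the glp-1 family). Values that cross the families, as in the plot of levels, use 1 set of factors for all 50 libraries.

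**Figure D1:**
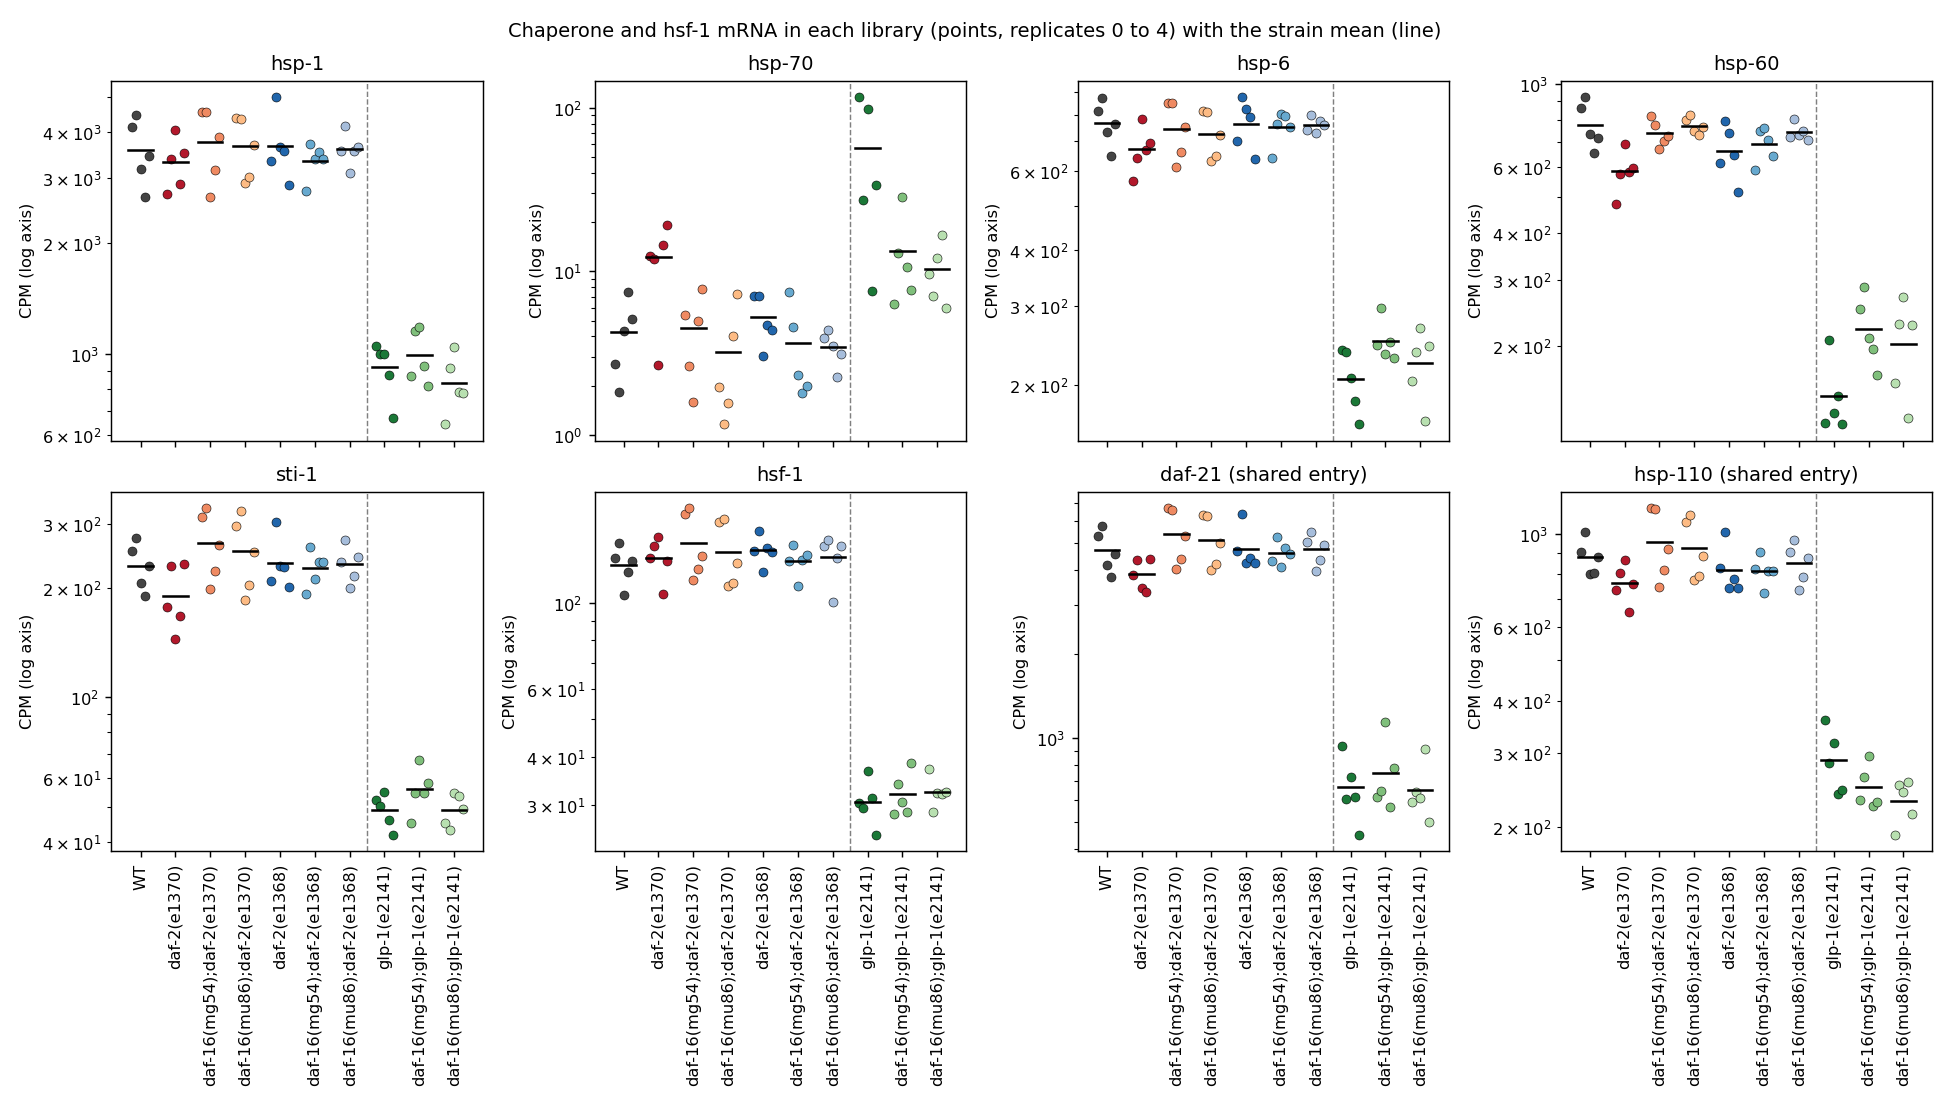
CPM (log axis, TMM factors over all 50 libraries) of the 6 genes and of the shared entries that hold daf-21 and hsp-110, in each of the 10 strains. Points are libraries, from replicate 0 on the left to replicate 4 on the right, lines are strain means, and the dashed line parts the daf-2 family from the glp-1 family. All panels but that of hsp-70 drop at the dashed line, while hsp-70 ranges from 1.16 to 19.3 CPM on its left and from 5.98 to 116 CPM on its right.

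Strain means of hsp-1, hsp-6 and hsf-1 were close together within the daf-2 family. hsp-1 averaged 3458 to 3764 CPM in its 7 strains, hsp-6 715.5 to 792 CPM, and hsf-1 129.5 to 143 CPM. The libraries of every pair of neighbours in the order of strain means overlapped, for each of the 6 genes and in both families. On the common scale the step from the lowest strain of the daf-2 family to the highest of the glp-1 family was the one without overlap, from 3315 to 991 CPM for hsp-1, from 583 to 222 CPM for hsp-60 and from 190.2 to 55.9 CPM for sti-1. For hsp-70 no step was free of overlap.

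The first question is what changes when daf-16 is removed from daf-2(e1370), tested as daf-2(e1370) minus the mean of its doubles. The 6-hour lead is named for daf-2(e1370) alone. It therefore cannot be told apart from genotype in this or any other comparison or interaction with that strain. Of the 6 genes, hsp-70 was higher in daf-2(e1370), hsp-60 and sti-1 were lower, and the differences of hsp-1, hsp-6 and hsf-1 did not pass the test. This makes 3 of 6 past an adjusted p of 0.05, beside 27.6% of the 11774 entries tested (1684 higher and 1561 lower), and a count over so few genes is not read as a departure from that background. The median log2 difference of the 6 was −0.07, against 0.02 over all entries. In whole animals, fewer cells of a type and less RNA per cell cannot be told apart in these or later values.

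hsp-70 encodes a cytosolic HSP70 that is scarce without stress and strongly induced by heat. In replicates 0 to 4 it measured 13.3, 12.4, 2.71, 16.7 and 20.8 CPM in daf-2(e1370). The mg54 double gave 5.205, 2.47, 1.70, 5.24 and 7.93 CPM, and the mu86 double 1.91, 1.11, 1.69, 4.27 and 7.56 CPM. Of the 5 daf-2(e1370) libraries 4 lay above all 10 libraries of the doubles, and the exception was the shallow replicate 2, where the value rests on 6 fragments against 251 to 492 in the others. The difference was 1.81 ± 0.40 on the log2 scale (SE; 95% interval 1.03 to 2.60; adjusted p = 0.000836), a 3.52-fold higher level. Without replicates 0 and 1 of both doubles it was 1.55 (adjusted p = 0.00703). Its locus partner uggt-2, a glycoprotein glucosyltransferase gene, gave 0.91 ± 0.51 in this comparison (adjusted p = 0.183).

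hsp-60, the mitochondrial chaperonin gene, went the other way. It measured 509, 597, 701, 666 and 640.4 CPM in replicates 0 to 4 of daf-2(e1370). The mg54 double gave 786, 731.5, 718, 737 and 741.5 CPM, and the mu86 double 785, 791.5, 805, 775 and 797 CPM. The highest daf-2(e1370) library (701 CPM) lay under the lowest of the doubles (718 CPM). Of the 6 genes hsp-60 alone showed no overlap here. The share of all entries without overlap was not counted, so this is not read as particular to hsp-60. The doubles varied little, with an SD of 25.9 CPM for mg54 and 11.6 CPM for mu86, against 74.1 CPM in daf-2(e1370). The log2 difference was −0.30 ± 0.08 (95% interval −0.46 to −0.14; adjusted p = 0.00703), equal to 1.23-fold lower. It missed the threshold without replicate 0 of daf-2(e1370) (−0.23, adjusted p = 0.0549) and held without replicates 0 and 1 of both doubles (−0.28, adjusted p = 0.0327). hsp-6, which encodes the HSP70 that works beside this chaperonin in mitochondria, measured 607 to 797 CPM in daf-2(e1370) and 654.5 to 812 CPM in the doubles, with a log2 difference of −0.05 ± 0.08 (95% interval −0.20 to 0.10; adjusted p = 0.623).

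sti-1 encodes the linker that couples HSP70 to HSP90. It measured 189, 239, 147, 191 and 251 CPM in daf-2(e1370), 299, 311, 211, 233 and 268 CPM in the mg54 double, and 289.7, 313, 199.6, 216.5 and 260.2 CPM in the mu86 double. The groups overlapped, with 3 daf-2(e1370) libraries under the lowest of the doubles. The log2 difference was −0.35 ± 0.12 (95% interval −0.58 to −0.12; adjusted p = 0.0267). It rests on the 4 libraries of the doubles that stand apart: without them it was −0.18 (adjusted p = 0.271). It also missed the threshold without replicate 0, 2 or 3 of daf-2(e1370) (adjusted p = 0.0614, 0.142 and 0.0878), replicate 0 or 1 of the mg54 double (0.0574 and 0.0631) or replicate 0 of the mu86 double (0.0571).

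The shared entries behaved like sti-1. That of daf-21 (daf-21 with C47E8.11, V, 14683808 to 14688905) measured 4119, 4538, 3511, 3834 and 4742 CPM in daf-2(e1370), against 4315 to 6405 CPM in the 10 libraries of the doubles. Its log2 difference was −0.36 ± 0.11 (adjusted p = 0.0146), and −0.18 (adjusted p = 0.214) without the 4 libraries. That of hsp-110 (C30C11.4 with ZK1236.7 and pqn-96, III, 8436417 to 8446965) gave −0.22 ± 0.08 (adjusted p = 0.0297), and −0.08 (adjusted p = 0.451) without them. Both calls also ended without replicate 3 of daf-2(e1370) (adjusted p = 0.0556 and 0.101). The daf-21 call ended without its replicate 2 too (0.072), and that of hsp-110 without replicate 0 or 1 of any of the 3 strains (adjusted p = 0.0559 to 0.0932).

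hsp-1 and hsf-1 showed no difference past the test here. hsp-1 measured 2905, 3522, 4137, 3316 and 3780 CPM in daf-2(e1370) and 2861 to 4348 CPM in the doubles, with a log2 difference of −0.08 ± 0.12 (95% interval −0.32 to 0.15; adjusted p = 0.614). hsf-1 measured 120.5 to 150.2 CPM against 119.5 to 165.5 CPM, with a difference of −0.01 ± 0.08 (95% interval −0.18 to 0.15; adjusted p = 0.915). For hsf-1 this interval leaves room for a change of about 0.15 to 0.18 on the log2 scale in either direction. That bound depends on the 4 libraries that stand apart. Without them hsf-1 gave 0.14 ± 0.08 (adjusted p = 0.173) and hsp-1 0.07 ± 0.13 (adjusted p = 0.747).

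**Figure D2:**
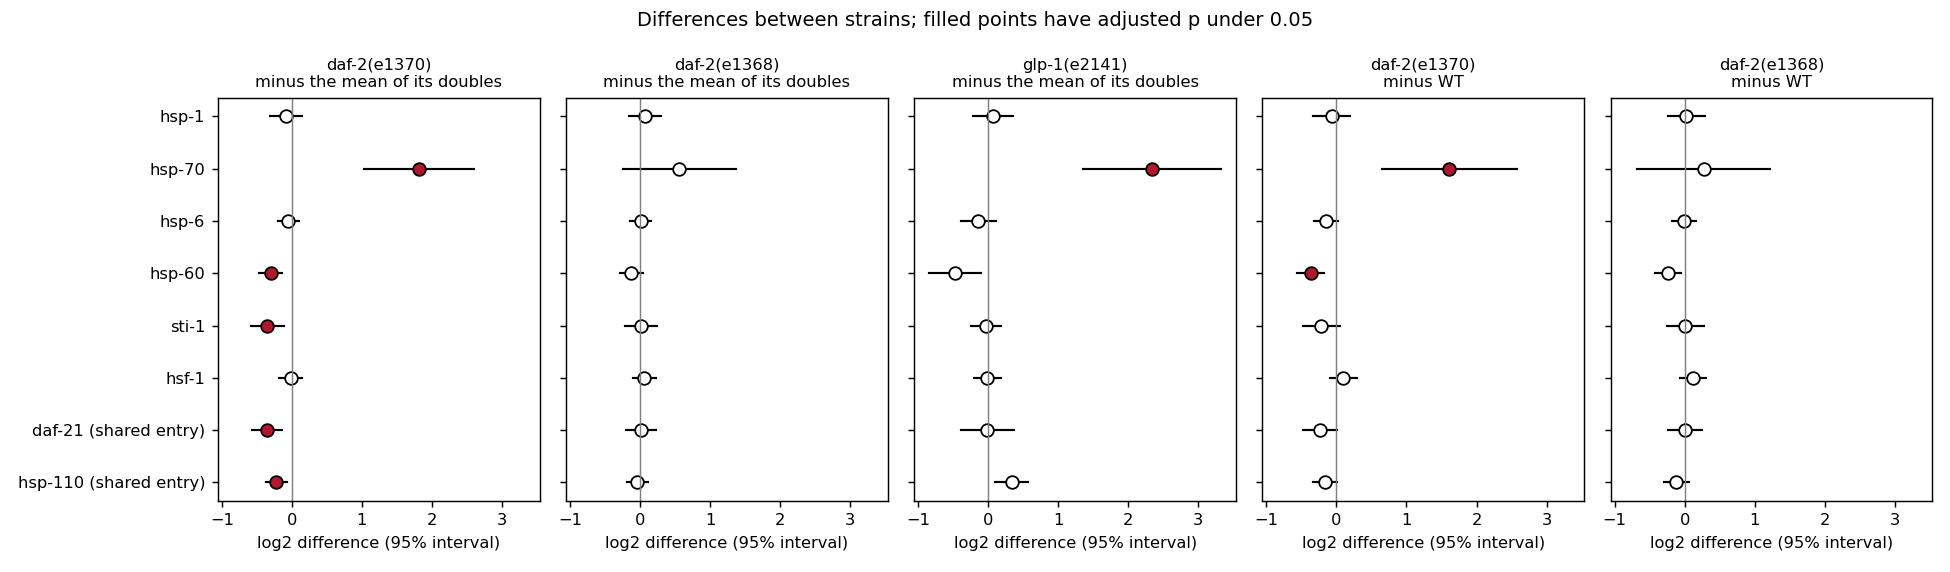
Log2 differences (points) with 95% intervals (bars) for the 6 genes and the shared daf-21 and hsp-110 entries, in single mutants against the mean of their doubles and in the daf-2 single mutants against WT. Filled points have an adjusted p under 0.05. hsp-70 is filled on the right of 0 in 3 panels, at 1.81, 2.345 and 1.61, and open in both panels of daf-2(e1368).

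In daf-2(e1368), a milder allele of the same receptor gene, the comparison with the doubles called 0 of the 6 genes by edgeR, 0 at an unadjusted p under 0.05 and 0 by DESeq2, beside 5.01% of all entries. hsp-70 measured 7.31, 6.94, 3.22, 4.87 and 4.48 CPM in daf-2(e1368), 7.60, 4.58, 2.50, 1.82 and 2.06 CPM in the mg54 double, and 3.99, 4.41, 3.79, 2.35 and 3.20 CPM in the mu86 double. The single mutant exceeded the mean of the doubles of its number in 5 of 5, by 0.05 to 1.06 on the log2 scale, and the groups overlapped. The fitted difference was 0.56 ± 0.41 (95% interval −0.25 to 1.37; adjusted p = 0.658), an interval that includes 0 as well as more than a doubling. For hsp-60 it was −0.12 ± 0.08 (95% interval −0.29 to 0.04; adjusted p = 0.610). Over all entries 590 were called, and 1229 with the replicate number, shared by these 3 strains, as a block. The 6 genes gained no call with the block.

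In glp-1(e2141), where the germline is missing, hsp-70 again was the gene that passed. It measured 111, 26.2, 94.0, 6.59 and 32.2 CPM in replicates 0 to 4, a wide spread within 1 strain. The mg54 double gave 5.47, 11.7, 26.65, 10.1 and 6.21 CPM and the mu86 double 8.89, 6.22, 11.3, 15.0 and 5.47 CPM. Of the glp-1(e2141) libraries, 3 lay above all libraries of the doubles, replicate 1 lay just under the highest of these, and replicate 3 lay among the lowest. The log2 difference was 2.345 ± 0.50 (95% interval 1.36 to 3.33; adjusted p = 0.0129), a 5.08-fold higher level. This was 1 of 6 genes, beside 5.02% of the 10391 entries tested in the glp-1 family.

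That call was lost when replicate 0 alone was left out, which holds the highest hsp-70 value and leads the axis of its family. The difference was then 1.91 (adjusted p = 0.0588). Without the 3 leading libraries, 1 per strain with replicate 0 among them, it was 2.29 (adjusted p = 0.0121). Its locus partner uggt-2 measured 0.806 to 5.01 CPM in glp-1(e2141), with a difference of −0.21 ± 0.32 (adjusted p = 0.815).

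hsp-60 in glp-1(e2141) lay at 118.5, 198.5, 127, 127 and 118 CPM. It lay at 135 to 258 CPM in the mg54 double and at 115 to 252 CPM in the mu86 double, so the groups overlapped. The difference was −0.48 ± 0.19 (95% interval −0.85 to −0.10; adjusted p = 0.191) and did not pass. hsp-1, hsp-6, sti-1 and hsf-1 gave differences from −0.14 to 0.07. The shared hsp-110 entry gave 0.33 ± 0.12 (adjusted p = 0.133), with 342, 273, 304, 208 and 233 CPM in the single mutant and 177 to 275 CPM in the doubles.

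**Figure D3:**
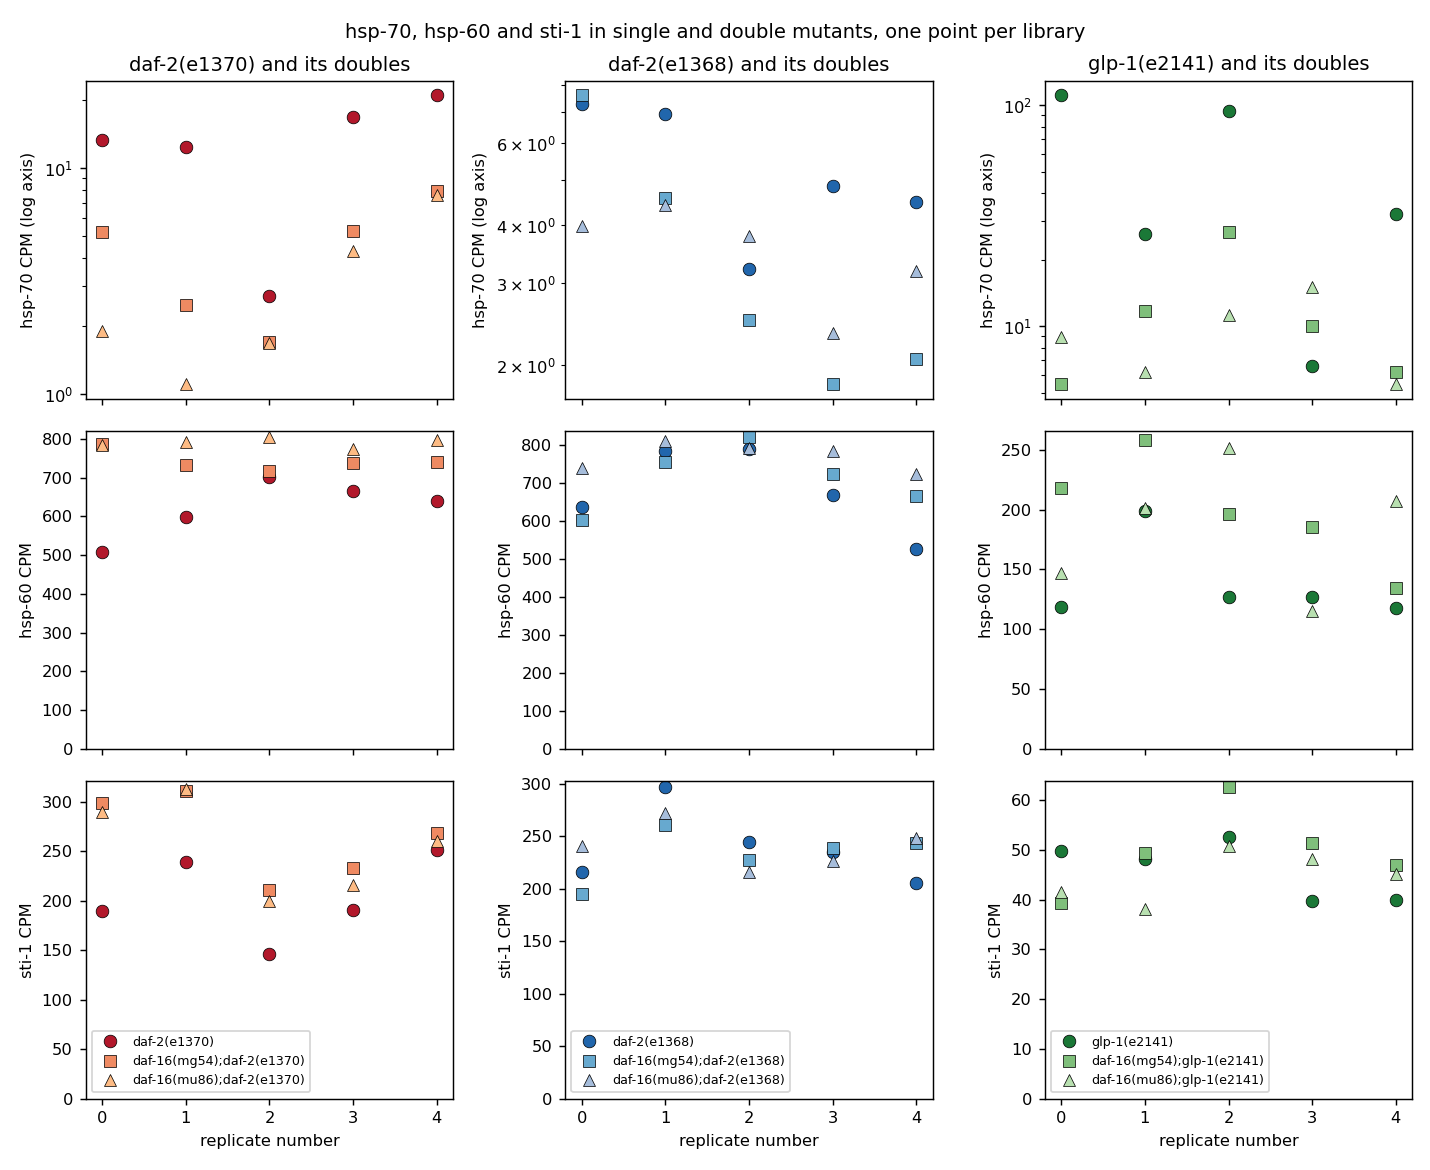
CPM of hsp-70 (log axis), hsp-60 and sti-1 by replicate number in each single mutant (circles) and in its mg54 (squares) and mu86 (triangles) doubles, each family on its own scale. Numbers are taken to pair libraries among the daf-2(e1368) strains and between the daf-2(e1370) doubles, and elsewhere only name them. All hsp-60 circles of daf-2(e1370) (at most 701 CPM) lie under all its squares and triangles, and the hsp-70 circles of glp-1(e2141) range from 6.59 to 111 CPM.

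The mg54 and mu86 doubles, which remove daf-16 in different ways, were compared in each background. edgeR called 0 of the 6 genes in all 3 comparisons, as did DESeq2 and an unadjusted p under 0.05, beside 0.204% of all entries in daf-2(e1370), 0.0934% in daf-2(e1368) and 0.0192% in glp-1(e2141). The largest of these 18 differences were those of hsp-70, at 0.45 ± 0.49 (95% interval −0.51 to 1.405; adjusted p = 0.990) in the daf-2(e1370) background and 0.36 ± 0.62 (95% interval −0.85 to 1.56) in glp-1(e2141). For hsp-60 the differences were −0.09 ± 0.10, −0.11 ± 0.10 and 0.11 ± 0.22 for the backgrounds in the order above. With the replicate number as a block common to all strains of the daf-2 family, 56 entries were called in place of 24 between the daf-2(e1370) doubles.

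Against WT, daf-2(e1370) again differed in hsp-70 and hsp-60, 2 of 6 genes beside 18.2% of all entries. WT measured 2.77, 1.84, 4.64, 7.755 and 5.24 CPM for hsp-70, so 4 of 5 daf-2(e1370) libraries lay above the highest WT library. The log2 difference was 1.61 ± 0.49 (95% interval 0.64 to 2.58; adjusted p = 0.0195). It missed the threshold without replicate 0 or 1 of WT or replicate 4 of daf-2(e1370) (1.48, 1.41 and 1.39; adjusted p = 0.0590, 0.0628 and 0.0610). WT measured 884, 928, 792, 675 and 739 CPM for hsp-60, and 1 of these lay inside the range of daf-2(e1370), giving −0.37 ± 0.10 (95% interval −0.56 to −0.18; adjusted p = 0.00557). With WT and daf-2(e1370) alone in the fit it was −0.35 (adjusted p = 0.0760). hsp-6 (−0.15 ± 0.09, adjusted p = 0.280), sti-1 (−0.22 ± 0.13, adjusted p = 0.298) and hsf-1 (0.10 ± 0.10, adjusted p = 0.548) did not pass.

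The doubles were close to WT. For the mean of the daf-2(e1370) doubles minus WT, edgeR called 0 of 6 genes (0 unadjusted, 0 by DESeq2), beside 1.3% of all entries, and hsp-70 gave −0.20 ± 0.42 (95% interval −1.02 to 0.62) and hsp-60 −0.07 ± 0.08 (95% interval −0.23 to 0.09). For the mean of the daf-2(e1368) doubles minus WT the counts were also 0 of 6, beside 0.425%, with hsp-70 at −0.29 ± 0.42. daf-2(e1368) itself against WT called 0 of 6 beside 2.06%, with 1 gene, hsp-60, at an unadjusted p of 0.0166 (−0.24 ± 0.10, adjusted p = 0.284) and 0 by DESeq2. All these comparisons share the WT libraries.

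The 2 receptor alleles were also set against each other. For daf-2(e1370) minus daf-2(e1368) edgeR called 0 of 6, beside 8.43% of all entries, and DESeq2 called 0. At an unadjusted p under 0.05 there was 1, hsp-70, with 1.34 ± 0.49 (95% interval 0.38 to 2.29; adjusted p = 0.0873). This difference passed without the shallow replicate 2 of daf-2(e1370) (1.57, adjusted p = 0.0351), with the 2 strains alone in the fit (1.37, adjusted p = 0.0343) and in the fit blocked by replicate number (1.26, adjusted p = 0.0371). Whether the samples are paired by number was not shown for these strains.

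Whether the effect of removing daf-16 differs between backgrounds was tested as an interaction, and edgeR called 0 of the 6 genes in each of the 3 tests, as did DESeq2. With the replicate number as a block, sti-1 (−0.36, adjusted p = 0.0229) and the shared daf-21 entry (−0.36, adjusted p = 0.00949) passed between the daf-2 alleles, where the numbers pair some of the strains and were not shown to pair daf-2(e1370) with its doubles. For daf-2(e1370) against daf-2(e1368) the background was 4.71%, and the 2 genes at an unadjusted p under 0.05 were hsp-70 (1.255 ± 0.59, adjusted p = 0.215) and sti-1 (−0.36 ± 0.16, adjusted p = 0.197). For daf-2(e1370) against glp-1(e2141) the background was 7.24% (541 higher and 352 lower, or 468 and 540 with RLE factors), with 0 genes at an unadjusted p under 0.05 and hsp-70 at −0.53 ± 0.64 (95% interval −1.77 to 0.72). For daf-2(e1368) against glp-1(e2141) it was 0.867%, with hsp-70 at −1.71 ± 0.64 (adjusted p = 0.298) and hsp-60 at 0.42 ± 0.18 (adjusted p = 0.429). The effect on hsp-70 is therefore not shown to be larger in one background than in another, although it passed the test in 2 of 3. The shared hsp-110 entry did pass between daf-2(e1370) and glp-1(e2141), at −0.57 ± 0.15 (adjusted p = 0.0107), and −0.38 (adjusted p = 0.0830) without the 4 libraries that stand apart.

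Against WT at the lower temperatures, all 6 genes differed in glp-1(e2141), beside 90.5% of the 12340 entries tested, so the calls as such carry little. hsp-70 was 13.2-fold higher (log2 3.725 ± 0.57, adjusted p = 9.78e-08). The other 5 were lower, by −1.96 ± 0.17 for hsp-1, −1.895 ± 0.12 for hsp-6, −2.41 ± 0.15 for hsp-60, −2.23 ± 0.15 for sti-1 and −2.03 ± 0.13 for hsf-1. The median entry moved by 0.68 with TMM factors, 0.04 with RLE factors and 0.54 with library totals alone. Relative to that median, the values were −2.64, −2.57, −3.08, −2.91 and −2.71 for the 5 genes in the same order with TMM, and 3.05 for hsp-70. With RLE factors the differences themselves were −2.58, −2.515, −3.04, −2.86 and −2.66, and 3.15 for hsp-70. Germline and sperm marker sums were also lower in the glp-1 family: sperm markers reached at most 34.7 CPM in the glp-1 family on the common scale. As lists against WT, 29 of 29 sperm and 21 of 21 germline and oocyte entries were lower, while 11 of 14 body wall muscle entries were higher and 1 lower (median 1.18), and 7 of 8 intestine entries were higher (median 1.66). The part that lost germline mRNA, temperature or genotype has in these values cannot be told apart.

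Within both doubles of daf-2(e1370), the libraries fell into 2 sets that did not overlap in 4 of the 6 genes. The share of all entries that part in this way was not counted. The same libraries lead an axis holding 66.6% of the deviations in the daf-2 family, so the 4 of 6 are not read as particular to these genes. Replicates 0 and 1 of the mg54 and mu86 doubles of daf-2(e1370) held more hsp-1, hsp-6, sti-1 and hsf-1 than replicates 2 to 4, with no overlap in either strain. The log2 ratios of the means, mg54 first, were 0.35 and 0.31 for hsp-1, 0.19 and 0.15 for hsp-6, 0.36 and 0.42 for sti-1, and 0.35 and 0.36 for hsf-1. Those of hsp-60 (0.05 and −0.01) and hsp-70 (−0.37 and −1.58) came from overlapping libraries. hsf-1, for example, measured 163 and 165.5 CPM in those 2 libraries of the mg54 double and 122 to 135.5 CPM in the other 3.

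The same 4 libraries differed in cell type markers. The sum of 32 sperm marker entries, 3 of them at 0 throughout both strains, was 249 and 70.3 CPM for numbers 0 and 1 of the mg54 strain and 1666 to 1806 CPM in its others. In the mu86 double it was 575 and 371 CPM against 2259 to 2349 CPM. Body wall muscle markers (15 entries, 1 at 0 throughout) summed to 3777 and 3046 CPM against 7097 to 7217 CPM, and to 4461 and 3825 CPM against 7591 to 7787 CPM. Germline and oocyte markers (23 entries, 2 at 0 throughout) summed to 14698 and 14521 CPM against 9591 to 12663 CPM in the mg54 double, and to 15351 and 14824 CPM against 9670.0 to 12024 CPM in the mu86 double. As lists, daf-2(e1370) against its doubles had 0 of 29 sperm entries called (0 unadjusted, 0 by DESeq2), 1 of 21 germline and oocyte entries higher and 3 lower, 1 of 14 body wall muscle entries higher and 1 lower, and 2 of 8 intestine entries higher and 3 lower, beside 27.6% of all entries called. Without the 4 libraries these counts were 0 higher and 3 lower for sperm, 1 and 1 for germline and oocyte, 0 and 4 for body wall muscle, and 2 and 3 for intestine. Their part in the sti-1, daf-21 and hsp-110 results was not tested, and the values of these genes without the 4 libraries stand above. hsp-70 and hsp-60 kept their calls without them.

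**Figure D4:**
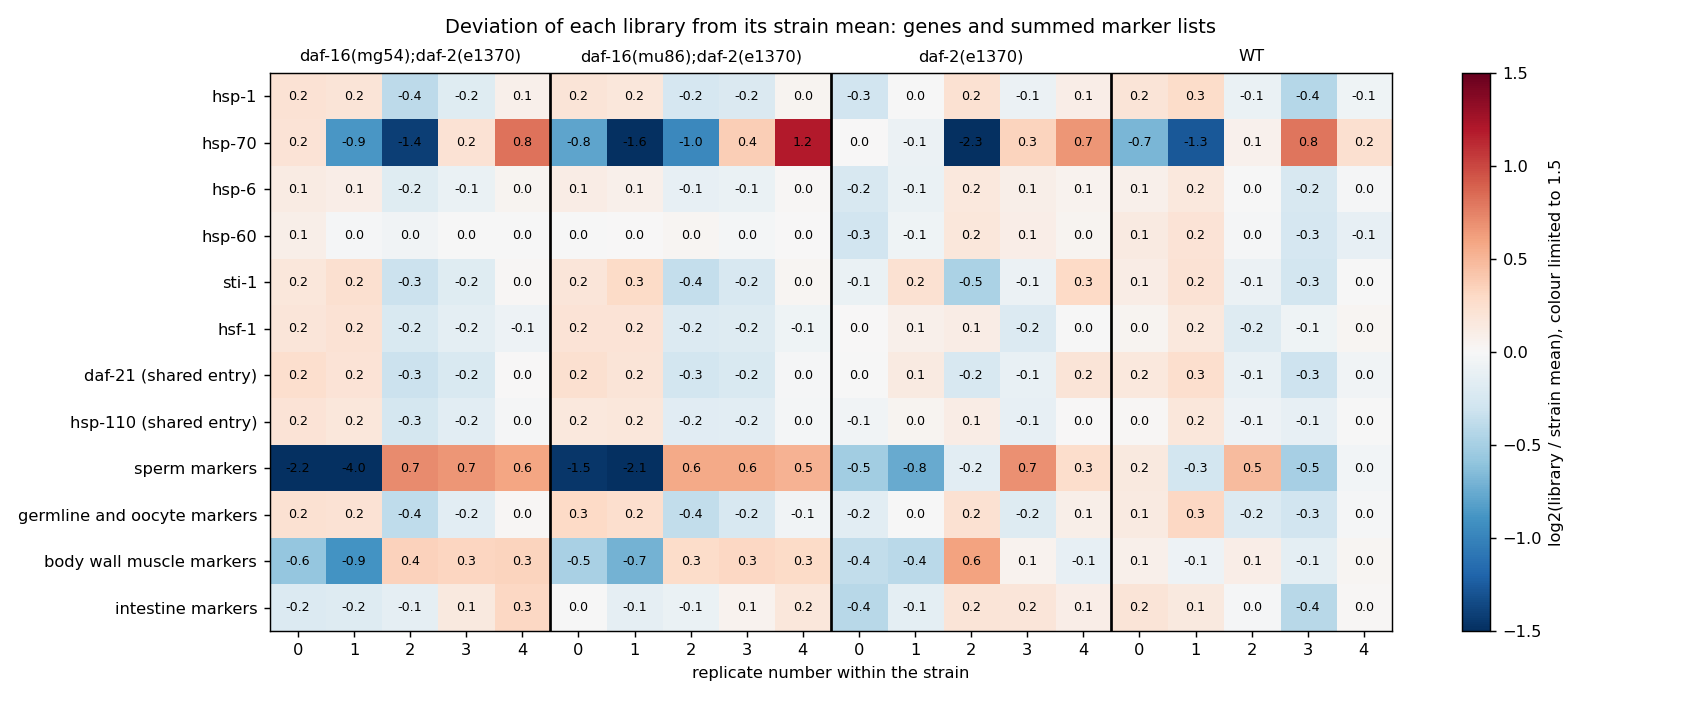
Log2 of each library over its strain mean (colour, with the value written in each cell) for the 6 genes, the shared entries and 4 summed marker lists, in both doubles of daf-2(e1370), in daf-2(e1370) and in WT, by replicate number. Replicates 0 and 1 of the doubles are above their mean for hsp-1, hsp-6, sti-1 and hsf-1 and below it for sperm and body wall muscle markers, and hsp-60 stays near 0 there.

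Across the 35 libraries of the daf-2 family, deviations from the strain means, in log2(CPM + 0.5), moved together for most pairs. Pearson's r was 0.88 for hsp-1 with hsp-6, 0.86 for hsp-6 with hsp-60, 0.73 for hsp-1 with both hsp-60 and sti-1, and 0.04 for hsp-60 with hsf-1. hsp-70 stood apart, with r from −0.34 to 0.09 against the other 5 genes. In the 15 libraries of the glp-1 family hsp-70 instead gave 0.74 with sti-1, 0.53 with hsp-1, 0.85 with the shared hsp-110 entry and −0.13 with hsp-60. These are descriptions: the points share their library, depth and the leading axis of each family.

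The entries most like each gene over the same 35 libraries, by r of log2(CPM + 0.5) among 5015 single-gene entries averaging at least 10 CPM, are given as a description. For hsp-1 these were atx-2 (0.95), npp-11 (0.95) and tbb-2 (0.95). For sti-1 they were cct-6, a subunit of the cytosolic chaperonin (0.96), Y51F10.3 (0.95) and Y14H12B.1 (0.95), and for hsf-1 par-3, ape-1 and F33H1.4 (0.96 each). hsp-60 was most like mdh-2, a mitochondrial malate dehydrogenase gene (0.89), and the ribosomal protein genes rpl-21 (0.87) and rpl-16 (0.86), and hsp-6 like gpb-1 (0.87), eef-2 (0.85) and har-1 (0.84). For hsp-70 the highest values were lower, 0.74 for Y70G10A.3 and C39E9.8 and 0.73 for F21C10.10.

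Other genes of protein folding and its control, not limited to the cytosol and mitochondria, were counted from lists, using genes with an entry of their own. In daf-2(e1370) against its doubles, J-domain co-chaperones, which hand clients to HSP70, fell in 6 and rose in 0 of 18 tested (0 rose at an unadjusted p under 0.05 and 0 by DESeq2), out of 31 listed. In this comparison 27.6% of all entries were called, so the J-domain count is near that share. The median was −0.21 against 0.02 over all entries. The largest changes were those of dnj-12 (−0.40 ± 0.09), dnj-19 (−0.37 ± 0.09), dnj-11 (−0.36 ± 0.08) and dnj-7 (−0.33 ± 0.07). From the list of other HSP70 and HSP90 genes 4 were tested: T14G8.3, stc-1, hsp-3 and hsp-4. Of these T14G8.3 (−0.39 ± 0.05) and stc-1 (−0.24 ± 0.08) fell and 0 rose (0 unadjusted, 0 by DESeq2). The listed enpl-1, hsp-75, R151.7 and trap-1 had no entry of their own, so this count holds no HSP90 gene.

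These lists moved with the 4 libraries that stand apart. Without those libraries, 27.4% of all entries were called, and 4 J-domain genes were lower and 1 higher, dnj-28 (0.31 ± 0.10, adjusted p = 0.0236), a name chosen after its value was seen. The J-domain median was then −0.10 against 0.04 over all entries. dnj-12 (−0.28 ± 0.09), dnj-19 (−0.25 ± 0.09), dnj-11 (−0.25 ± 0.08) and dnj-7 (−0.34 ± 0.08) kept their calls, T14G8.3 kept its own (−0.36 ± 0.06) and stc-1 did not (−0.14, adjusted p = 0.152).

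With all libraries, HSP90 co-chaperones fell in 3 of 5 and rose in 0 (0 unadjusted, 0 by DESeq2), with a median of −0.28, beside 27.6% of all entries called in either direction. These were ZC395.10, the p23 gene daf-41 in RefSeq (−0.48 ± 0.14), fkb-6, an FKBP-type prolyl isomerase gene (−0.35 ± 0.12), and pph-5, a phosphatase gene (−0.28 ± 0.06). Of 9 mitochondrial quality control genes, 4 fell and 1 rose, with a median of −0.28. Y22D7AL.10, which encodes the co-chaperonin of hsp-60, fell (−0.44 ± 0.10), as did the import pore genes tomm-22 (−0.43 ± 0.09) and tomm-40 (−0.33 ± 0.05), while dve-1, a transcription factor gene of the mitochondrial unfolded protein response, rose (0.57 ± 0.13). Y22D7AL.10 measured 223 CPM on average in daf-2(e1370) and 311 and 298 CPM in the doubles. Without the 4 libraries, 1 of the 3 HSP90 co-chaperone calls was kept, that of pph-5 (−0.19 ± 0.06), while ZC395.10 (−0.35, adjusted p = 0.0673) and fkb-6 (−0.20, adjusted p = 0.206) missed the threshold. All 5 mitochondrial calls were kept, among them Y22D7AL.10 (−0.41 ± 0.11) and dve-1 (0.40 ± 0.13). Of 3 exchange factors and partners edgeR called 0 (0 unadjusted, 0 by DESeq2). From the list of HSF-1 regulators, hsb-1, ddl-1 and ddl-2 had only shared entries and were not tested. The gene smk-1, whose link to HSF-1 was not tested here, was the one entry tested from that list and was not called.

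Several small heat shock genes are known targets of both HSF-1 and DAF-16. Of 5 tested, 3 rose and 0 fell (0 unadjusted, 0 by DESeq2) in daf-2(e1370) against its doubles: hsp-12.6 (2.25 ± 0.22), hsp-12.3 (1.78 ± 0.20) and sip-1 (1.605 ± 0.14), beside 27.6% of all entries called. These 3 calls were kept without the 4 libraries (2.07 ± 0.23, 1.76 ± 0.23 and 1.82 ± 0.16). hsp-12.6 and hsp-12.3 were scarce, averaging 4.97 and 6.24 CPM in daf-2(e1370) and 0.94 to 1.93 CPM in its doubles, while sip-1 averaged 1196 CPM in daf-2(e1370). The heat-induced pair hsp-16.2 (0.16, adjusted p = 0.822) and hsp-16.41 (0.08, adjusted p = 0.922) did not pass. These near-copies can share reads with other hsp-16 genes, so their counts are uncertain. hsp-12.6 and sip-1 also rose in daf-2(e1368) against its doubles (1.36 ± 0.22 and 1.49 ± 0.14), beside 5.01% of all entries. There the J-domain, HSP90 co-chaperone and mitochondrial lists had 0 calls by edgeR and DESeq2, and at an unadjusted p under 0.05 they had 1, 0 and 0 lower.

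**Figure D5:**
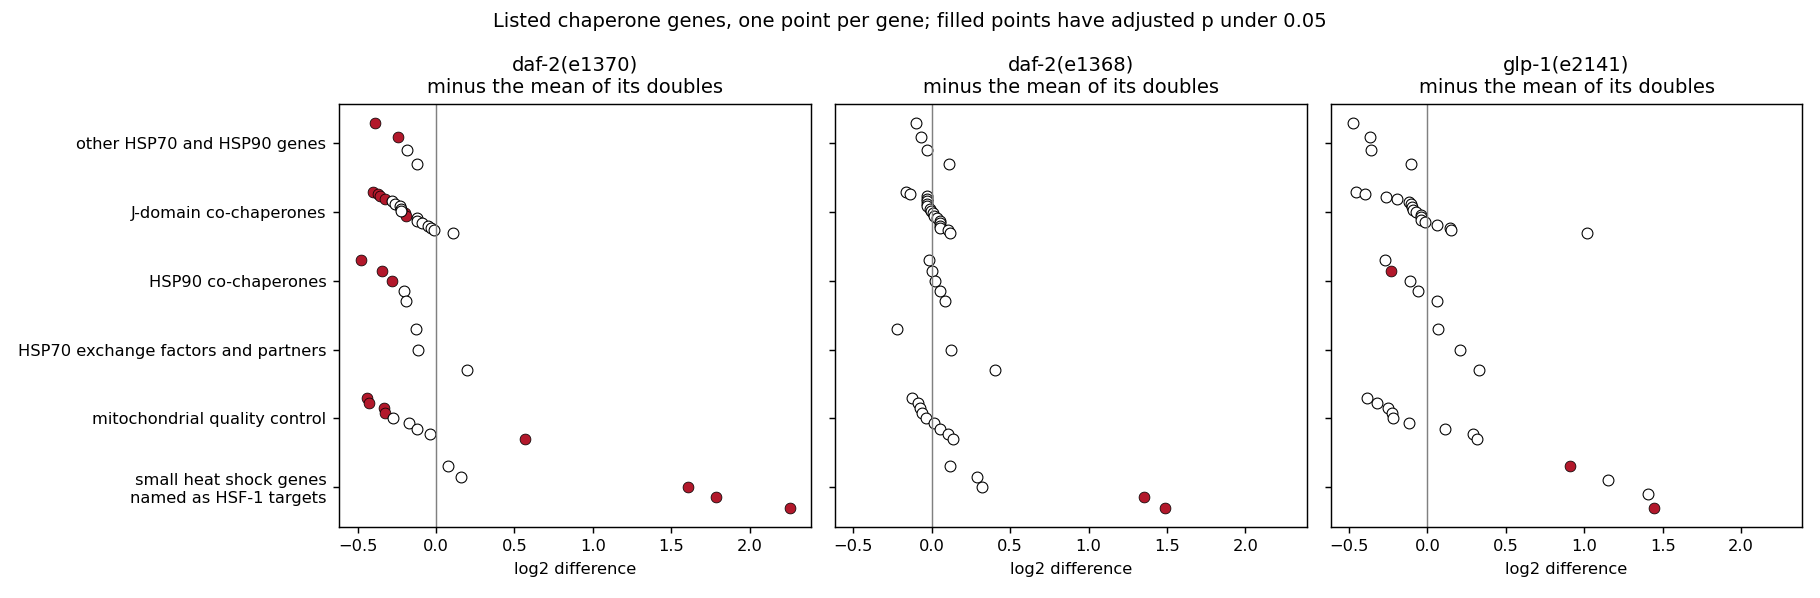
Log2 differences of the listed chaperone genes (1 point per gene) in each single mutant against the mean of its doubles, by list. Filled points have an adjusted p under 0.05. In daf-2(e1370) the filled points of the J-domain, HSP90 co-chaperone and other HSP70 and HSP90 lists lie left of 0, between −0.48 and −0.19, and those of the small heat shock list lie right of it, from 1.605 to 2.25.

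In glp-1(e2141) against its doubles, 2 small heat shock genes of 4 tested rose, hsp-12.6 (1.445 ± 0.24) and hsp-12.3 (0.91 ± 0.21), beside 5.02% of all entries. Both kept their calls without the leading library of each glp-1 strain (1.49 ± 0.26 and 0.91 ± 0.23). hsp-16.2 (1.41, adjusted p = 0.0572) and hsp-16.41 (1.15, adjusted p = 0.0824) missed the threshold with edgeR, and DESeq2 called all 4. They averaged 29.6 and 28.7 CPM in glp-1(e2141), 12.98 and 15.0 CPM in the mg54 double and 9.55 and 11.1 CPM in the mu86 double. The gene sip-1 was not tested in the glp-1 family. It averaged 0.16 CPM in glp-1(e2141), 0.47 CPM in the mg54 double and 0.06 CPM in the mu86 double, against 464 CPM in WT. ZC395.10 fell (−0.23 ± 0.06, adjusted p = 0.0444) and missed the threshold without the leading libraries (−0.22, adjusted p = 0.0667). With all libraries, the J-domain list had 0 of 17 called (2 lower unadjusted, 0 by DESeq2). Of 9 mitochondrial quality control genes edgeR called 0 and DESeq2 2 lower. Without the leading libraries, where 8.77% of all entries were called, further listed genes passed, named after their values were seen. T14G8.3 (−0.51, adjusted p = 0.00465), Y22D7AL.10 (−0.39, 0.0243) and dnj-7 (−0.27, 0.0250) were lower, and bag-1 (0.36, 0.0480) was higher. Against WT, where 18.2% of all entries were called, daf-2(e1370) had 5 of 18 J-domain genes lower, 4 of 9 mitochondrial quality control genes lower, among them Y22D7AL.10 (−0.50 ± 0.11), and the same 3 small heat shock genes higher.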

How the data were processed

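Per the labels, total RNA of whole animals was polyA selected and sequenced as paired ends. The authors deposited 1 table of estimated counts (expected counts, taken as fragments) per entry and library. Per the submitters' processing notes the build was ce10 and the tools were Cuffdiff 2.1.1, Cufflinks, Bowtie2 2.1.0, TopHat2 2.0.9, cutadapt and FastQC 0.10.1, roles not given. Of the values above 0, 72.2% are within 0.02 of a whole number. Values were rounded, entries with the same name and locus summed (34207 to 33458, after 314 without a gene, 0.187% to 0.48% of fragments), and loci listed at 0 for every gene in some libraries although averaging over 1000 fragments in others were left out of the fits (10 loci with 915 entries in the daf-2 family, 1 locus with 164 entries in the glp-1 family). Names, coding lengths and exons came from WBcel235 and no sequence or coordinate was converted.

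edgeR 4.0.16 in R 4.3.3 (TMM factors, filterByExpr, robust quasi-likelihood fit by strain) tested 15 comparisons, with Benjamini-Hochberg adjustment over all entries and a threshold of 0.05. Comparisons within a family used its 35 or 15 libraries, and those across families all 50. SEs are the absolute log2 difference over the square root of F, and 95% intervals are 1.96 SE to each side. The procedure was also run on simulated independent libraries with a common dispersion for all entries. These lack the leading axes of the real libraries, so that run does not bear on the calls reported. CPM as printed have no offset, while log2(CPM + 0.5) was used for likeness, for correlations between the genes and for differences by replicate number. Among the 6 genes and the shared entries, counting error is small for all but hsp-70, whose libraries hold 6 to 1690 fragments. It is not small for scarce listed genes such as hsp-12.6 and hsp-12.3. Alternatives were DESeq2 1.42.0, RLE factors, no filter, only the compared strains, leaving out each library, and leaving out replicates 0 and 1 of the daf-2(e1370) doubles. A replicate block was also fitted, common to all 35, 15 or 50 libraries of a fit. Chosen after seeing the data were leaving out the leading library of each glp-1 strain, library totals alone, and counts of the lists without the libraries that stand apart.

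The genes named are the 6 genes and shared entries, up to 4 called genes with the largest change per list and comparison, and the 3 most like entries. The genes and lists were chosen with earlier results of these data known. The replicate numbers come from the labels. Same-numbered libraries deviated together in every pair (r over 0.1) between the doubles of daf-2(e1370) (0.91 to 0.96) and among the 3 daf-2(e1368) strains (lowest 0.19), so the numbers were taken to pair these, and no others that were compared. The lowest r of daf-2(e1370) with its mg54 and mu86 doubles, 0.0999 and 0.0927, fell just short of that cut.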

Additional observations from a re-analysis of the deposited data

Results flagged for a closer look

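Of 80 sets of 5 libraries (8 entries in 10 strains), 5 had 1 library far from the other 4, by a gap over 0.71 of the range. Chance alone flags about 1 set in 20, so this number is not above chance. hsp-60 in glp-1(e2141) was highest in replicate 1, at 198.5 CPM against 118 to 127 CPM. hsp-1 in the mg54 double of daf-2(e1368) was lowest in replicate 0, at 2813 CPM. hsf-1 in the mu86 double of daf-2(e1368) was lowest in replicate 2, at 109 CPM. The shared daf-21 entry was highest in replicate 1 of daf-2(e1368), at 6252 CPM, and in replicate 2 of the mg54 double of glp-1(e2141), at 1068 CPM, a library that leads the axis of its family. The effect of daf-16 removal on the shared hsp-110 entry differed between daf-2(e1370) and glp-1(e2141) by −0.57 in the interaction test (adjusted p = 0.0107).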

How the results depend on the processing

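Over the refits, results of the 6 genes and 2 shared entries stayed on the same side of the threshold 2531 times, called or not. They missed the threshold 29 times and gained it 8 times. Direction was compared only where a call was made, and 0 calls turned. Differences without a call could change sign. That of hsf-1 in daf-2(e1370) minus its doubles ran from −0.05 to 0.03 on leaving out single libraries. It was 0.14 without replicates 0 and 1 of both doubles. Missed and gained calls of hsp-70, hsp-60, sti-1, daf-21 and hsp-110 stand in the report. With the replicate block hsp-70 in glp-1(e2141) against its doubles missed it (2.17, adjusted p = 0.0519), and calls were gained for hsp-70 between the alleles, for sti-1 and daf-21 in the interaction of the alleles (−0.36 each, adjusted p = 0.0229 and 0.00949), for daf-21 against WT (−0.23, 0.0378) and against daf-2(e1368) (−0.23, 0.0353), and for hsp-110 against WT (−0.16, 0.0474). With the compared strains alone sti-1, daf-21 and hsp-110 missed it against the doubles (adjusted p = 0.135, 0.0728 and 0.129). The causes were not tested.

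Counts of all entries called moved more. The block gave, against the main counts, 5657 against 3245 for daf-2(e1370) minus its doubles, 3345 against 2147 minus WT, 2962 against 993 minus daf-2(e1368), 3668 against 555 for the interaction of the alleles, 1229 against 590 for daf-2(e1368) minus its doubles, 666 against 243 minus WT, 646 against 153 and 86 against 50 for the doubles of daf-2(e1370) and daf-2(e1368) minus WT, 202 against 107 for the interaction of daf-2(e1368) and glp-1(e2141), 272 against 522 for glp-1(e2141) minus its doubles, and 56 against 24 and 1 against 2 for mg54 minus mu86 in daf-2(e1370) and glp-1(e2141). DESeq2 gave 879 for glp-1(e2141) minus its doubles, 84 and 233 for the daf-2(e1368) and daf-2(e1370) doubles minus WT, and 48 and 23 for mg54 minus mu86 in daf-2(e1370) and glp-1(e2141). With the compared strains alone there were 1900 for daf-2(e1370) minus its doubles, 98 for its doubles minus WT, 7 for its mg54 minus mu86, and 566 and 70 for the interactions of daf-2(e1370) and daf-2(e1368) with glp-1(e2141). Without the leading glp-1 libraries there were 915 for glp-1(e2141) minus its doubles, 209 for the daf-2(e1368) interaction and 4 for mg54 minus mu86. Leaving out 1 library gave 319 to 841 for glp-1(e2141) minus its doubles (331 without its replicate 4, 319 without its replicate 0, 841 without mu86 replicate 3), 57 to 193 for the interaction of daf-2(e1368) and glp-1(e2141) (57 without glp-1 replicate 4, 69 without daf-2(e1368) replicate 1, 164 without mg54 replicate 2, 193 without mu86 replicate 3 of glp-1), and 348 (without daf-2(e1368) replicate 1) to 705 for that of the alleles. It gave 32 to 53 and 90 to 183 for the doubles of daf-2(e1368) and daf-2(e1370) minus WT (lowest without WT replicates 3 and 4), and 2 to 4 for mg54 minus mu86 in glp-1(e2141). Same-numbered libraries of WT and of the glp-1 family did not all deviate together. Those of daf-2(e1370) with its mg54 and mu86 doubles had r of 0.0999 to 0.747 and 0.0927 to 0.733. These are all above 0, with the lowest just short of the cut of 0.1. In these comparisons 5 and 6 of 10 libraries correlated best with their own number. Fragment counts limit precision for hsp-70, with 6 in the shallow library and as few as 28 in the mu86 double of daf-2(e1370) and 42 in WT.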
